A study of Mus musculus with 40 samples.

Results

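Heme and iron handling in rib repair tissue was followed through 8 genes: Hmox1, Blvrb, Cd163, Slc40a1, Tfrc, Slc11a1, Ftl1 and Fth1. They were listed by symbol, with earlier results of these data known, and all 8 were among the 21204 genes in the filtered count table. Bulk RNAseq measured whole pieces of rib tissue, which the labels describe as bone, bone marrow and intercostal muscle, from wild type mice at baseline (tissue taken before resection, by the paper's definition) and at 0dpr, 2dpr, 5dpr and 14dpr, where dpr counts the days after resection. Immature mice were 7 weeks old and mature mice over 10 months old, and all groups shared the same genotype with no other treatment than the resection of a rib segment. Each of the 10 groups of age and stage had n = 4 libraries, except mature mice at 5dpr with n = 3, where replicate 2 was not analysed here (39 of 40 samples). The labels do not state that replicates came from separate animals, so p-values measure the spread between these samples. Values are CPM (reads scaled to a common library total) with TMM scaling. Changes were tested with edgeR's quasi-likelihood test over all genes, with Benjamini-Hochberg adjustment and a threshold of 0.05.

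Blood and damaged red cells at a wound release hemoglobin, which macrophages take up. CD163 binds the complex of hemoglobin with haptoglobin, and heme oxygenase 1 (Hmox1) opens the heme ring and frees its iron. Biliverdin reductase B (Blvrb) reduces flavins and biliverdin, while Blvra is the main biliverdin reductase of adult tissue. Freed iron is stored in ferritin, a shell of light (Ftl1) and heavy (Fth1) chains, or leaves the cell through ferroportin (Slc40a1). The transferrin receptor (Tfrc) brings iron into cells, most of all into the erythroid precursors of the marrow, and NRAMP1 (Slc11a1) moves metal ions out of the phagosome of macrophages and neutrophils.

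Of these genes, 4 carry iron-responsive elements (IRE), short hairpins that iron regulatory proteins bind when iron is scarce. An IRE in the 5′ UTR lets these proteins hold back translation, and IREs in the 3′ UTR of Tfrc protect its mRNA from decay, so the RNA level follows iron through this route only for Tfrc. The sites below are shown because they divide the genes into those controlled at translation and the gene controlled at RNA stability. They were found on the transcribed strand of GENCODE UTRs in GRCm38 by a loop of CAGTGN (capitals), 5 paired bases on both sides of it and an unpaired C before the stem. Such a match was present in a 5′ UTR of 28 of 21862 genes (0.128%) and in a 3′ UTR of 127 genes (0.581%). The first 3 sites lie in 5′ UTRs, and the 4 sites found in Tfrc lie in its 3′ UTR. An element that departs from this pattern would be missed.
Fth1, chr19:9982732-9982760, plus strand: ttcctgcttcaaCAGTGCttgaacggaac
Ftl1, chr7:45459779-45459807, minus strand: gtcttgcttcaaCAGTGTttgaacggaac
Slc40a1, chr1:45925465-45925493, minus strand: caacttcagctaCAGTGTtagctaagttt
Tfrc, chr16:32631219-32631247, plus strand: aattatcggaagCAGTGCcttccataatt
Tfrc, chr16:32631598-32631626, plus strand: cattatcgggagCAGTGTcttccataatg
Tfrc, chr16:32631663-32631691, plus strand: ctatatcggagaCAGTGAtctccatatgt
Tfrc, chr16:32631710-32631738, plus strand: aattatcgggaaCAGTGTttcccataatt

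Total counts per library ranged from 6075355 to 21546977 (median 9092201), and the lowest count of a listed gene was 74 (Hmox1 in immature 0dpr replicate 1). After the data had been seen, 3 libraries were found to stand apart from the other 36. Immature 0dpr replicate 1 held hepatocyte transcripts, with 5840.1 CPM summed over Alb, Apoa1, Ttr, Fga and Serpina1a, where the other 36 held 0.26 to 314 CPM. Of those 36 (median 3.15 CPM), mature 0dpr replicates 1 and 2 were highest, at 196 and 314 CPM. The rest held at most 39.6 CPM. Both mature 0dpr libraries were kept when the 3 were left out. Immature 0dpr replicate 3 and mature 2dpr replicate 3 were low in short noncoding RNAs, with 174 and 23.6 CPM summed over Rn7s1, Rny1, Rny3 and Scarna2, where the other 36 held 1174 to 3605 CPM. Results of the 8 genes that moved when these libraries were left out are given with and without them. The protocol mentions several sequencing runs and gives no run for a library, and the part of the run in these results was not tested.

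The markers of all the named tissues were detected in every library, and their levels moved with the stage. Skeletal muscle markers (16 genes) were all lower at 2dpr than at 0dpr at both ages. Their summed level was 123049 to 224655 CPM at 0dpr and 18682 to 30474 CPM at 2dpr in immature mice, and 126209 to 253974 CPM and 15610.1 to 30896 CPM in mature mice. Macrophage markers (10 genes, among them Adgre1 and Csf1r) were all higher at 2dpr at both ages, with a summed level of 389 to 673 CPM at 0dpr and 3169.5 to 3703 CPM at 2dpr in immature mice, and 483 to 607 CPM and 2807 to 4099.7 CPM in mature mice. Erythroid markers (12 genes) were lower at 2dpr for 9 of 12 genes in immature and 12 of 12 in mature mice. Their summed level was 3688 to 18933 CPM at 0dpr and 2090.5 to 4311 CPM at 2dpr in the immature group, against 12976 to 25755 CPM and 1125 to 3883 CPM in the mature group. Of the neutrophil markers (10 genes), 1 was higher and 0 lower at 2dpr than at 0dpr in immature mice, and 1 was higher and 1 lower in mature mice. Leaving out the 3 libraries, 5 and 4 neutrophil markers were lower and the counts for muscle, macrophage and osteoblast markers were the same, while erythroid markers were lower for 12 of 12 at both ages. Of the osteoblast markers (6 genes), 2 were lower in immature and 4 in mature mice. At 0dpr against baseline in mature mice, all 16 muscle markers were higher, 8 of 10 macrophage markers and 7 of 10 neutrophil markers were lower, and the erythroid markers did not pass the test. In bulk tissue, fewer cells of a type and less RNA per cell cannot be told apart.

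**Figure D1:**
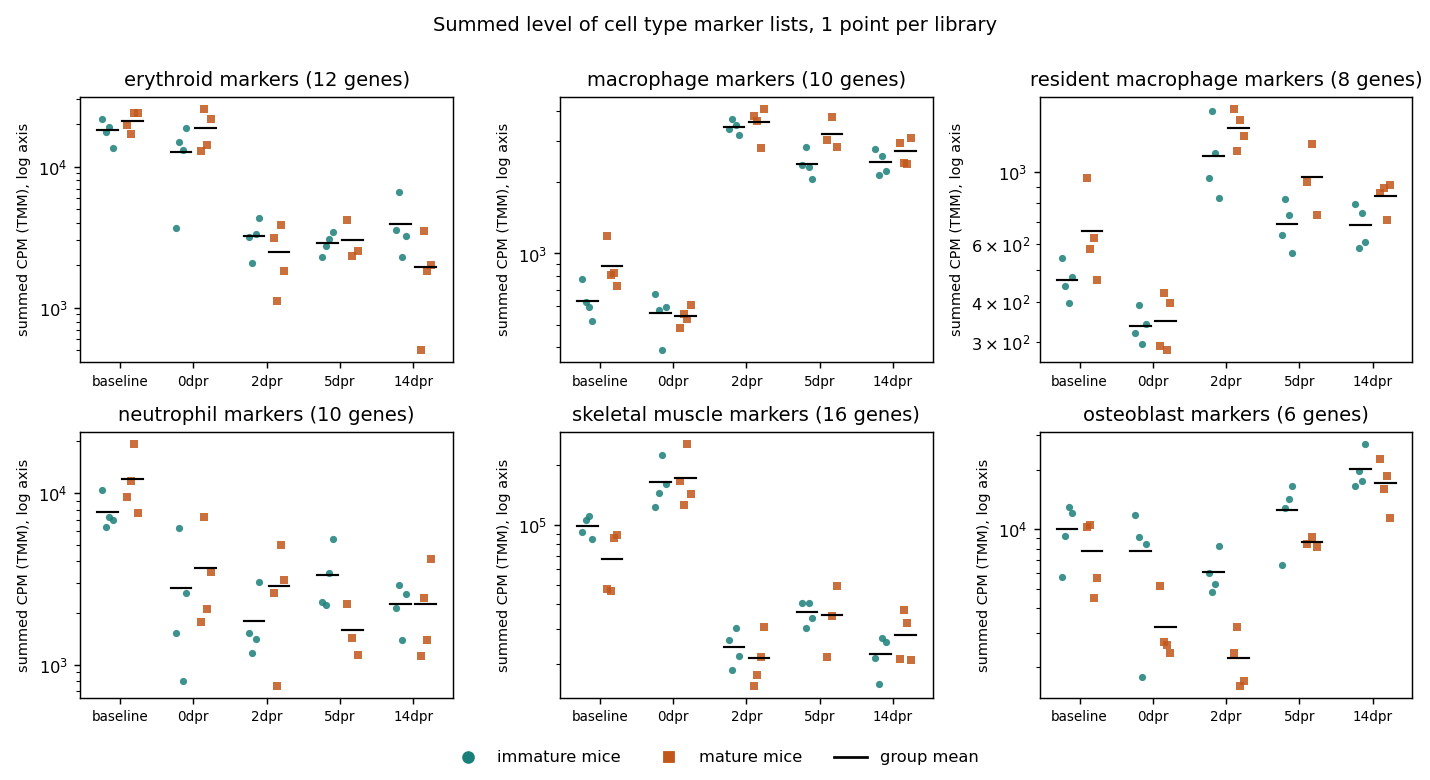
Summed CPM (log axis) of the cell type marker lists, with 1 point per library, by stage and age. Macrophage markers stood at 389 to 673 CPM at 0dpr and 3169.5 to 3703 CPM at 2dpr in immature mice, and muscle markers moved the other way at both ages.

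Among the comparisons between stages, Hmox1, Slc11a1 and Ftl1 changed most from 0 to 2dpr at both ages. This did not hold for all of the other genes, and Cd163 changed more in a later step at both ages. Between 0 and 2dpr in immature mice, 5 of 8 rose (Hmox1, Cd163, Ftl1, Fth1 and Slc11a1) and 2 fell (Slc40a1 and Tfrc). Of all tested genes, 21.8% rose and 22.2% fell. The same 5 genes rose in mature mice, where 3 fell (Slc40a1, Tfrc and Blvrb), and 22.7% of all genes rose and 24.9% fell. The median log2 fold change of the 8 genes was 0.71 in immature and 1.16 in mature mice, and that of all genes was -0.04 and -0.05. Both ages were compared with their own 0dpr libraries. Without the 3 libraries, 4 rose and 2 fell in immature mice (Cd163 was lost) and the count in mature mice was again 5 and 3.

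**Figure D2:**
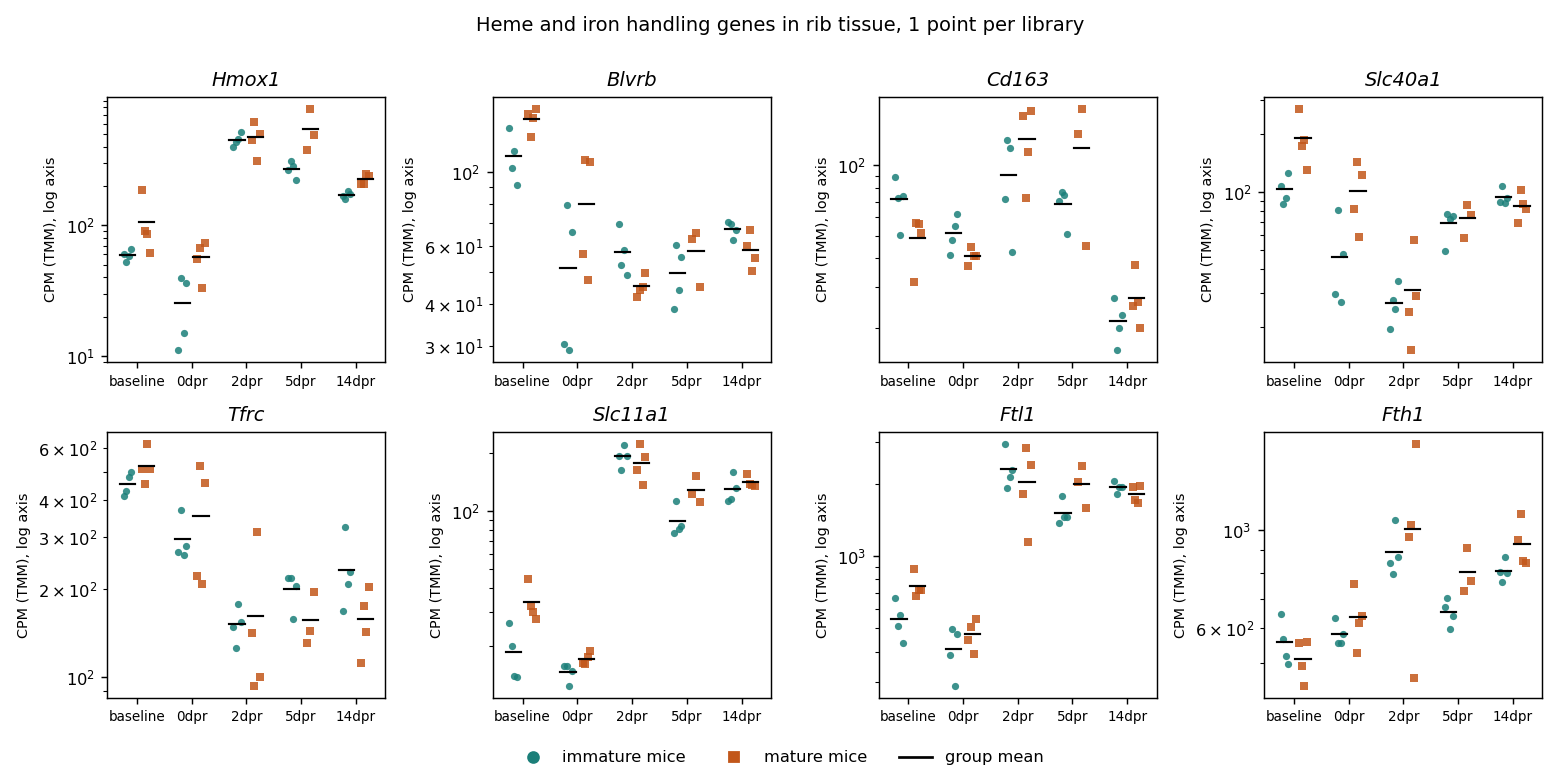
CPM (log axis) of the 8 genes, with 1 point per library, by stage and age. Hmox1 stood at 11.1 to 39.3 CPM at 0dpr and 395 to 516 CPM at 2dpr in immature mice, and Slc40a1 was lowest at 2dpr at both ages.

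The other stages held fewer changes. From baseline to 0dpr, 3 of 8 genes fell in immature mice (Hmox1, Slc40a1 and Blvrb), where 4.66% of all genes fell and 5.98% rose, while the mature group had 5 falls (those 3 with Ftl1 and Slc11a1), where 10.6% fell and 11.9% rose. Without the 3 libraries, edgeR called 0 of the 8 in immature mice (3 had an unadjusted p under 0.05). It then called 258 genes of the whole table, against 2257 with all libraries. DESeq2 with all libraries called 3 of the 8 and 3218 genes of the whole table. Mature mice gave 5 calls either way. From 2 to 5dpr, Slc40a1 rose in immature mice while Ftl1 and Slc11a1 fell (all genes: 4.37% higher and 3.68% lower), and in mature mice Slc40a1 alone passed the test, with a rise (all genes: 8.16% higher and 6.38% lower). From 5 to 14dpr, Cd163 fell in immature mice (all genes: 1.73% higher and 1.45% lower), and Hmox1 and Cd163 fell in mature mice (all genes: 1.95% higher and 2.23% lower).

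At 14dpr most of the genes differed from baseline. In immature mice, 4 of 8 genes were higher than at baseline (Hmox1, Ftl1, Fth1 and Slc11a1) and 3 were lower (Cd163, Tfrc and Blvrb), where 16.4% of all genes were higher and 15.1% lower. In mature mice the same 4 were higher and the same 3 and Slc40a1 were lower, where 17.1% of all genes were higher and 16.4% lower. In the same comparison, 9 of 10 macrophage markers were higher in immature and 8 in mature mice, 12 of 12 erythroid markers were lower at both ages, 9 and 10 of 10 neutrophil markers were lower, and 16 and 13 of 16 muscle markers were lower. Apart from the fit with the muscle score below, their part in the changes of the 8 genes was not tested.

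Other fits changed some of these calls. A fit with the mean log2 CPM of the 16 muscle markers as a covariate kept, from 0 to 2dpr, the calls of Hmox1, Ftl1 and Slc11a1 at both ages and that of Slc40a1 in mature mice. This score was 12.1 to 13.1 at 0dpr and 9.60 to 10.2 at 2dpr in immature mice. In mature mice it was 12.2 to 13.3 and 9.19 to 10.1. These ranges did not overlap, so at this step the fit could separate the score from the stage only by the spread within groups. The other calls of that step were lost (Cd163, Slc40a1, Fth1 and Tfrc in immature mice, adjusted p from 0.0704 to 0.397, and Cd163, Fth1, Tfrc and Blvrb in mature mice, adjusted p from 0.0737 to 0.225), although each of their fitted changes was larger in size than in the fit without the covariate. On the log2 scale, with the covariate against without it, they were Cd163 1.08 against 0.82, Slc40a1 -1.47 against -0.80, Fth1 1.08 against 0.61 and Tfrc -1.31 against -0.96 in immature mice, and Cd163 1.97 against 1.67, Fth1 1.2 against 0.66, Tfrc -1.52 against -1.13 and Blvrb -1.19 against -0.82 in mature mice. From baseline to 0dpr the same fit kept 1 call, Blvrb in immature mice, and lost Hmox1 and Slc40a1 there (adjusted p from 0.0591 to 0.0885) and all 5 calls in mature mice (adjusted p from 0.0787 to 0.554). The fitted changes were Hmox1 -1.09 against -1.23 and Slc40a1 -1.0 against -1.16 in immature mice, and Hmox1 -0.6 against -0.89, Slc40a1 -0.6 against -0.90, Ftl1 -0.53 against -0.67, Blvrb -0.71 against -0.85 and Slc11a1 -0.87 against -0.97 in mature mice. From baseline to 14dpr it kept Ftl1 and Slc11a1 at both ages and Slc40a1, Fth1, Tfrc and Blvrb in mature mice, and lost Hmox1 and Cd163 at both ages and Fth1, Tfrc and Blvrb in immature mice (adjusted p from 0.0592 to 0.202 in immature and adjusted p from 0.0792 to 0.185 in mature mice). These changes were Hmox1 1.08 against 1.52, Cd163 -1.54 against -1.74, Fth1 0.89 against 0.53, Tfrc -1.24 against -0.97 and Blvrb -0.97 against -0.72 in immature mice, and Hmox1 0.87 against 1.09 and Cd163 -0.74 against -0.85 in mature mice. From 2 to 5dpr it lost Ftl1 in immature mice (adjusted p = 0.129, Ftl1 -0.55 against -0.61). With only the libraries compared in the fit, the calls lost were the 3 of 0dpr against baseline in immature mice (adjusted p from 0.104 to 0.114, with Hmox1 -1.25 against -1.23, Slc40a1 -1.18 against -1.16 and Blvrb -1.14 against -1.12 in the fit to all libraries), Hmox1 of that step in mature mice (adjusted p = 0.0735), Cd163 and Slc40a1 at 2 against 0dpr in immature mice (adjusted p from 0.0507 to 0.0941), Fth1 and Tfrc at 2 against 0dpr in mature mice (adjusted p from 0.0731 to 0.142) and Slc40a1 at 5 against 2dpr in mature mice (adjusted p = 0.135). The same setting added 7 calls. In immature mice they were Hmox1 and Fth1 at 5 against 2dpr, both lower (adjusted p from 0.00171 to 0.0229), and Hmox1 (lower), Slc40a1, Blvrb and Slc11a1 (all higher) at 14 against 5dpr (adjusted p from 0.00233 to 0.0467), and between the ages it was Slc40a1 at baseline (adjusted p = 0.0359).

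**Figure D3:**
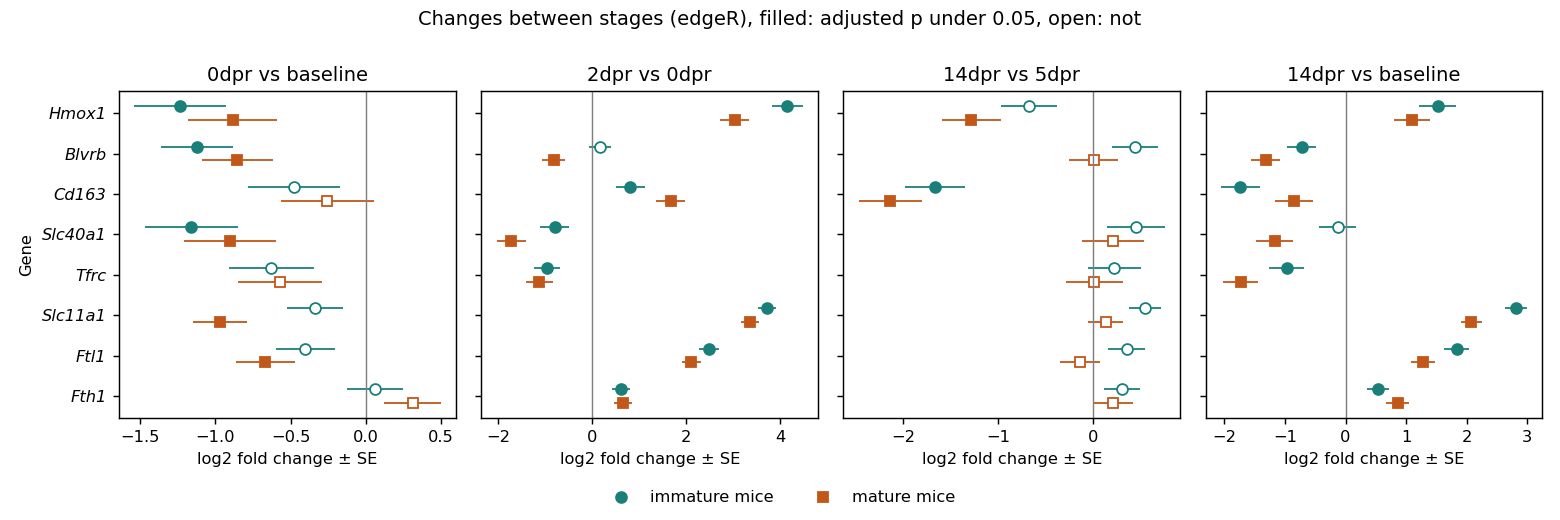
Log2 fold change (x axis) with its SE for each of the 8 genes in the comparisons between stages, by age, with filled points for an adjusted p under 0.05. Hmox1 and Slc11a1 lay farthest to the right from 0 to 2dpr, at 4.15 and 3.72 in immature mice. The step from 2 to 5dpr is not drawn.

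Hmox1 (ENSMUSG00000005413, chr8:75093621-75100589, plus strand, GRCm38), the enzyme that opens the heme ring, was measured at 60.9, 52.5, 58.8 and 66.1 CPM in the immature baseline libraries, at 11.1, 39.3, 15.1 and 36.0 CPM at 0dpr and at 395, 437, 458 and 516 CPM at 2dpr (values in order of replicate number here and below). All 4 libraries at 2dpr were far above all 8 earlier ones, and the 0dpr libraries with the lowest values were replicates 1 and 3, which stand apart in other genes too. In edgeR's test, Hmox1 rose 17.8-fold (log2 fold change 4.15, SE 0.33, adjusted p = 3.46e-12) from 0 to 2dpr in immature mice, and without the 3 libraries the rise was smaller (log2 fold change 3.56, adjusted p = 5.48e-10). In mature mice, Hmox1 was at 187, 90.1, 86.2 and 60.9 CPM at baseline, at 55.4, 67.6, 33.4 and 73.5 CPM at 0dpr and at 447, 622, 313 and 502 CPM at 2dpr. Its highest baseline library, replicate 1, was above every 0dpr library and below every 2dpr library. Hmox1 rose 8.21-fold (log2 fold change 3.04, SE 0.31, adjusted p = 5.36e-10) from 0 to 2dpr in mature mice. Both calls held under every alternative run.

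The fall of Hmox1 from baseline to 0dpr was less certain. Hmox1 fell 2.35-fold (log2 fold change -1.23, SE 0.30, adjusted p = 0.00962) in immature mice, and the call was lost without the 3 libraries (log2 fold change -0.63, adjusted p = 0.303) and without 0dpr replicate 3 alone (adjusted p = 0.0671). In mature mice it fell 1.85-fold (log2 fold change -0.89, SE 0.30, adjusted p = 0.0283), with overlapping libraries, and the call was lost without baseline replicate 1, 0dpr replicate 1 or 0dpr replicate 3 (adjusted p from 0.0724 to 0.282). Muscle markers were higher and macrophage markers lower at 0dpr in mature mice, and their part in this fall was not tested further.

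After 2dpr, Hmox1 stood at 265, 310.3, 287 and 224 CPM at 5dpr and at 166, 160.3, 182 and 174 CPM at 14dpr in immature mice, a stepwise order with no overlap between 2, 5, and 14dpr. Neither step passed the test (log2 fold change -0.73, SE 0.29, adjusted p = 0.127 for 5 against 2dpr, and log2 fold change -0.67, SE 0.29, adjusted p = 0.261 for 14 against 5dpr), but without the 3 libraries the fall from 2 to 5dpr did (log2 fold change -0.71, adjusted p = 0.0305), and with only the libraries compared both did (log2 fold change -0.75, adjusted p = 0.00171 and log2 fold change -0.66, adjusted p = 0.00233). In mature mice, Hmox1 stood at 379.8, 781 and 488 CPM at 5dpr and at 209, 208, 246 and 240.0 CPM at 14dpr. The 5dpr library with the highest value, replicate 3, was the highest of all 39 libraries. Hmox1 fell 2.43-fold (log2 fold change -1.28, SE 0.31, adjusted p = 0.0121) from 5 to 14dpr in mature mice, a call that rested on that library (adjusted p = 0.154 without it). The level at 14dpr was above baseline at both ages, and in edgeR's test Hmox1 rose 2.86-fold (log2 fold change 1.52, SE 0.30, adjusted p = 0.000128) in immature and rose 2.13-fold (log2 fold change 1.09, SE 0.29, adjusted p = 0.00359) in mature mice from baseline to 14dpr.

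Blvrb (ENSMUSG00000040466, chr7:27447978-27466144, plus strand), which reduces biliverdin and flavins and is abundant in red cells, followed another course than Hmox1. It was highest at baseline, with 136, 103, 116 and 91.5 CPM in immature and 149.8, 127, 146 and 155 CPM in mature mice. At 0dpr it was at 30.3, 79.8, 29.0 and 66.1 CPM in immature mice and at 56.5, 109, 47.4 and 107 CPM in mature mice, and in both sets a pair of libraries was low and a pair was high. At 2dpr the libraries lay close together, at 69.9, 52.5, 58.3 and 49.1 CPM in immature and 42.1, 44.0, 45.1 and 49.8 CPM in mature mice. Blvrb fell 2.17-fold (log2 fold change -1.12, SE 0.24, adjusted p = 0.00368) from baseline to 0dpr in immature mice, a call lost without the 3 libraries (log2 fold change -0.58, adjusted p = 0.222). In mature mice it fell 1.81-fold (log2 fold change -0.85, SE 0.24, adjusted p = 0.0084), a call lost without 0dpr replicate 1 or replicate 3 (adjusted p from 0.0525 to 0.0632). From 0 to 2dpr it did not pass the test in immature mice (log2 fold change 0.17, SE 0.24, adjusted p = 0.603, and log2 fold change -0.37, adjusted p = 0.208 without the 3 libraries) and it fell 1.77-fold (log2 fold change -0.82, SE 0.24, adjusted p = 0.00472) in mature mice. At 14dpr it was at 62.5 to 70.7 CPM in immature and 50.3 to 66.9 CPM in mature mice, below all 8 baseline libraries. Against baseline, Blvrb fell 1.65-fold (log2 fold change -0.72, SE 0.24, adjusted p = 0.0178) in immature mice, which was lost without baseline replicate 2 (adjusted p = 0.0673), and fell 2.49-fold (log2 fold change -1.32, SE 0.24, adjusted p = 4.23e-05) in mature mice. Of the 12 erythroid markers, all were lower at 14dpr than at baseline at both ages and all were lower at 2dpr than at 0dpr in mature mice. At 0dpr against baseline the 12 did not pass the test at either age (median log2 fold change -1.22 in immature and -0.75 in mature mice), and from 0 to 2dpr in immature mice 9 were lower. Their part in the course of Blvrb was not tested.

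Cd163 (ENSMUSG00000008845, chr6:124304656-124330527, plus strand), the macrophage receptor for hemoglobin bound to haptoglobin, varied widely between the libraries of some groups. In immature mice it was at 41.2, 48.0, 55.0 and 61.8 CPM at 0dpr and at 71.9, 129, 119 and 42.6 CPM at 2dpr, with replicate 4 at 2dpr inside the range of the 0dpr libraries. In mature mice it was at 37.2, 44.7, 40.9 and 40.7 CPM at 0dpr and at 163, 72.2, 115 and 171 CPM at 2dpr, without overlap. In edgeR's test, Cd163 rose 3.19-fold (log2 fold change 1.67, SE 0.31, adjusted p = 3.19e-05) in mature mice. In immature mice it rose 1.76-fold (log2 fold change 0.82, SE 0.31, adjusted p = 0.0296), a call lost without 0dpr replicate 1 or 3 or 2dpr replicate 2 or 3 (adjusted p from 0.0509 to 0.14), without the 3 libraries (log2 fold change 0.70, adjusted p = 0.159) and with RLE size factors (log2 fold change 0.73, adjusted p = 0.0507).

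The firmest change of Cd163 was a late fall. From 5 to 14dpr it went from 70.4, 76.6, 74.6 and 50.6 CPM to 27.0, 16.1, 20.1 and 22.9 CPM in immature mice and from 137, 175 and 45.1 CPM to 25.1, 37.4, 26.0 and 20.1 CPM in mature mice. The groups did not overlap at either age, and 7 of the 8 libraries of 14dpr were lower in Cd163 than every library of any other stage, the exception being mature replicate 2. Cd163 fell 3.16-fold (log2 fold change -1.66, SE 0.32, adjusted p = 0.00128) in immature and fell 4.39-fold (log2 fold change -2.13, SE 0.33, adjusted p = 0.000103) in mature mice, and both calls held under every alternative run. Against baseline it fell 3.33-fold (log2 fold change -1.74, SE 0.32, adjusted p = 4.82e-05) in immature mice and fell 1.80-fold (log2 fold change -0.85, SE 0.31, adjusted p = 0.0332) in mature mice, lost when any of 6 of the 8 libraries was left out (3 of the baseline and 3 of the 14dpr libraries, replicates 2, 3 and 4 and replicates 1, 3 and 4, adjusted p from 0.0616 to 0.107). Of the 10 macrophage markers, 1 was higher and 9 did not pass the test in immature mice from 5 to 14dpr, and in mature mice 10 did not. Their summed level at 14dpr was 2139 to 2770.1 CPM in immature and 2387 to 3082 CPM in mature mice, against 2059 to 2827 CPM and 2812 to 3765 CPM at 5dpr. Of 8 markers of resident macrophages, Folr2, a folate receptor, fell 2.38-fold (log2 fold change -1.25, SE 0.27, adjusted p = 0.00452) in immature and fell 2.62-fold (log2 fold change -1.39, SE 0.28, adjusted p = 0.00235) in mature mice, and Vcam1 was higher in immature mice. Without the 3 libraries, 3 of the 8 were lower in immature and 2 in mature mice. Their part in the fall of Cd163 was not tested.

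Slc40a1 (ENSMUSG00000025993, chr1:45908068-45926523, minus strand) encodes ferroportin, the exporter that carries iron out of macrophages, and it was lowest at 2dpr, when Hmox1 was high. In immature mice it was at 107, 87.4, 93.5 and 126 CPM at baseline, at 29.6, 81.4, 26.9 and 47.9 CPM at 0dpr and at 19.5, 27.8, 24.8 and 34.7 CPM at 2dpr. Both 0dpr libraries that stand apart (replicates 1 and 3) lay inside the range of the 2dpr libraries, and the other 2 lay above it. Slc40a1 fell 1.74-fold (log2 fold change -0.80, SE 0.31, adjusted p = 0.0371) from 0 to 2dpr in immature mice. Leaving out 0dpr replicate 2 or 4 or 2dpr replicate 1, 2 or 3 ended this call (adjusted p from 0.0519 to 0.389), as did the replicate block (log2 fold change -0.77, adjusted p = 0.0523) and a fit with no filter on low counts (log2 fold change -0.75, adjusted p = 0.0524), while without the 3 libraries the fall was larger (log2 fold change -1.30, adjusted p = 0.000331). In mature mice it was at 271, 174, 187 and 131 CPM at baseline, at 82.2, 144, 58.6 and 123 CPM at 0dpr and at 23.9, 15.2, 56.4 and 28.9 CPM at 2dpr. The highest of the 2dpr libraries, replicate 3, is the library that stands apart, and it was still below all 0dpr libraries. Slc40a1 fell 3.29-fold (log2 fold change -1.72, SE 0.31, adjusted p = 2.20e-05) in mature mice from 0 to 2dpr, and by more without the 3 libraries (log2 fold change -2.19, adjusted p = 2.61e-08). Erythroid markers also fell in this step, most of them in immature and all of them in mature mice. Their part in the fall of Slc40a1 was not tested.

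From baseline to 0dpr, Slc40a1 fell 2.23-fold (log2 fold change -1.16, SE 0.31, adjusted p = 0.0152) in immature mice, a call lost without baseline replicate 6 or 0dpr replicate 1 or 3 (adjusted p from 0.0553 to 0.0973) and without the 3 libraries (log2 fold change -0.65, adjusted p = 0.273). In mature mice it fell 1.87-fold (log2 fold change -0.90, SE 0.30, adjusted p = 0.0288), lost without baseline replicate 1 or 0dpr replicate 1 or 3 (adjusted p from 0.0969 to 0.138). The low level at 2dpr was followed by a rise. At 5dpr the libraries were at 49.7, 77.6, 73.0 and 75.7 CPM in immature and 57.8, 85.9 and 76.1 CPM in mature mice, all above the 2dpr libraries of their age. Slc40a1 rose 2.59-fold (log2 fold change 1.37, SE 0.31, adjusted p = 0.00376) in immature and rose 2.37-fold (log2 fold change 1.24, SE 0.33, adjusted p = 0.00829) in mature mice from 2 to 5dpr, and the mature rise was larger without the 3 libraries (log2 fold change 1.69, adjusted p = 4.18e-05). At 14dpr it was at 89.1, 108, 88.4 and 93.7 CPM in immature mice, within the spread of baseline (log2 fold change -0.13, SE 0.30, adjusted p = 0.796), and at 68.9, 102, 87.3 and 81.6 CPM in mature mice, below all baseline libraries. Against baseline it fell 2.24-fold (log2 fold change -1.17, SE 0.30, adjusted p = 0.00275) in mature mice.

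Tfrc (ENSMUSG00000022797, chr16:32608920-32632794, plus strand) encodes the receptor for iron-loaded transferrin and holds the 4 IRE matches printed above. Tfrc was at 412, 428, 480.4 and 498 CPM in the immature and 509, 452, 619.8 and 508 CPM in the mature baseline libraries. At 0dpr it was at 267, 369, 261 and 279.6 CPM in immature and 221, 523, 207 and 457 CPM in mature mice, where 2 mature libraries were near baseline and 2 were well below. At 2dpr it was at 148, 126, 177 and 154 CPM in immature and 142, 93.5, 311 and 99.9 CPM in mature mice. The highest of these, mature replicate 3, stands apart in other genes and overlapped the 0dpr range. From 0 to 2dpr, Tfrc fell 1.95-fold (log2 fold change -0.96, SE 0.28, adjusted p = 0.00577) in immature and fell 2.18-fold (log2 fold change -1.13, SE 0.28, adjusted p = 0.00125) in mature mice. The falls were larger without the 3 libraries (log2 fold change -1.12, adjusted p = 0.00114 and log2 fold change -1.69, adjusted p = 1.66e-06). From baseline to 0dpr, Tfrc did not pass the test in immature (log2 fold change -0.63, SE 0.28, adjusted p = 0.146) or mature mice (log2 fold change -0.57, SE 0.28, adjusted p = 0.145), but it fell in mature mice without 0dpr replicate 2 (adjusted p = 0.0302). Later levels stayed low, with 157 to 217 CPM at 5dpr and 168 to 324 CPM at 14dpr in immature mice, and 130.3 to 194 CPM and 111 to 202 CPM in mature mice. Against baseline at 14dpr it fell 1.96-fold (log2 fold change -0.97, SE 0.28, adjusted p = 0.00746) in immature mice and fell 3.31-fold (log2 fold change -1.73, SE 0.29, adjusted p = 1.13e-05) in mature mice. Erythroid markers, whose cells hold much of the body's transferrin receptor, fell in the same comparisons, and their part in the fall of Tfrc was not tested.

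Slc11a1 (ENSMUSG00000026177, chr1:74375195-74386062, plus strand) encodes a phagosomal metal transporter of macrophages and neutrophils, whose protein and transport were not measured here. The RNA of Slc11a1 had the smallest adjusted p of the 8 genes from 0 to 2dpr. It was at 15.7, 15.8, 12.5 and 14.9 CPM at 0dpr and 193, 164, 220.4 and 194 CPM at 2dpr in immature mice, and at 16.3, 16.1, 17.6 and 18.8 CPM and 162, 222, 136 and 190.0 CPM in mature mice. Every 2dpr library was above every 0dpr library. In edgeR's test, Slc11a1 rose 13.1-fold (log2 fold change 3.72, SE 0.19, adjusted p = 1.17e-16) in immature and rose 10.3-fold (log2 fold change 3.37, SE 0.19, adjusted p = 4.66e-16) in mature mice, and both calls held under every alternative run. From baseline (26.3, 20.1, 14.1 and 13.8 CPM in immature and 44.7, 32.1, 30.2 and 27.5 CPM in mature mice) to 0dpr it fell 1.95-fold (log2 fold change -0.97, SE 0.18, adjusted p = 0.000256) in mature mice and did not pass the test in immature mice (log2 fold change -0.34, SE 0.18, adjusted p = 0.247). At 5dpr the libraries were at 77.4, 113, 81.1 and 83.5 CPM in immature and 123, 152 and 112 CPM in mature mice, and Slc11a1 fell 2.17-fold (log2 fold change -1.12, SE 0.17, adjusted p = 3.67e-05) from 2 to 5dpr in immature mice. The macrophage markers were lower in the same step for 5 of 10 genes in immature and 4 of 10 in mature mice (median log2 fold change -0.54 and -0.33), and their part in the falls of Slc11a1 and Ftl1 was not tested. In mature mice this step was not called for Slc11a1 (log2 fold change -0.46, SE 0.18, adjusted p = 0.0897), but it was without 2dpr replicate 3 (adjusted p = 0.0372) and without the 3 libraries (log2 fold change -0.57, adjusted p = 0.0302). From 5 to 14dpr it did not pass the test in immature mice (log2 fold change 0.55, SE 0.17, adjusted p = 0.0676), but it rose there without 5dpr replicate 3 (adjusted p = 0.0303), without the 3 libraries (log2 fold change 0.56, adjusted p = 0.0274) and by DESeq2 (log2 fold change 0.56, adjusted p = 0.0323). At 14dpr it was at 113 to 159.9 CPM in immature and 135 to 156 CPM in mature mice, and against baseline it rose 7.01-fold (log2 fold change 2.81, SE 0.18, adjusted p = 1.34e-13) and rose 4.21-fold (log2 fold change 2.07, SE 0.18, adjusted p = 2.35e-11).

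The ferritin chains both rose after injury, the light chain far more than the heavy chain. Ftl1 (ENSMUSG00000050708, chr7:45457944-45459884, minus strand) was at 389, 498, 289 and 472 CPM at 0dpr and 2926, 1918, 2139 and 2281 CPM at 2dpr in immature mice, and at 447, 507, 389.9 and 545 CPM and 1822, 2816, 1142 and 2388 CPM in mature mice. The lowest library of 2dpr, mature replicate 3, was still above every 0dpr library. Ftl1 rose 5.62-fold (log2 fold change 2.49, SE 0.21, adjusted p = 6.11e-12) in immature and rose 4.32-fold (log2 fold change 2.11, SE 0.20, adjusted p = 1.00e-10) in mature mice from 0 to 2dpr, and both calls held under every alternative run. From baseline to 0dpr Ftl1 fell 1.59-fold (log2 fold change -0.67, SE 0.20, adjusted p = 0.0119) in mature mice, lost without baseline replicate 1 or 0dpr replicate 3 (adjusted p from 0.0514 to 0.0663), and it did not pass the test in immature mice (log2 fold change -0.40, SE 0.20, adjusted p = 0.184). From 2 to 5dpr it fell 1.53-fold (log2 fold change -0.61, SE 0.20, adjusted p = 0.0454) in immature mice, a call lost when any of 6 of the 8 libraries was left out (2dpr replicates 1, 3 and 4 and 5dpr replicates 2, 4 and 5, adjusted p from 0.0694 to 0.182), with the replicate block (log2 fold change -0.55, adjusted p = 0.134) and with no filter on low counts (log2 fold change -0.61, adjusted p = 0.0591). At 14dpr it was at 2059, 1820.3, 1945 and 1932 CPM in immature and 1939, 1714, 1659 and 1955 CPM in mature mice, above all baseline libraries (434 to 667 CPM in immature and 684 to 879.9 CPM in mature mice). Against baseline, Ftl1 rose 3.56-fold (log2 fold change 1.83, SE 0.20, adjusted p = 7.21e-09) in immature and rose 2.42-fold (log2 fold change 1.27, SE 0.20, adjusted p = 3.72e-06) in mature mice.

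Fth1 (ENSMUSG00000024661, chr19:9980598-9985098, plus strand), the chain with the ferroxidase site, was at 634, 556, 556 and 582 CPM at 0dpr and 841, 797, 1053 and 869 CPM at 2dpr in immature mice, and at 757, 529, 618 and 639.7 CPM and 962, 1024, 464 and 1559 CPM in mature mice. Mature 2dpr replicate 3 was the lowest of these 16 libraries and replicate 4 of the same group the highest. Fth1 rose 1.53-fold (log2 fold change 0.61, SE 0.19, adjusted p = 0.00767) in immature mice and rose 1.58-fold (log2 fold change 0.66, SE 0.19, adjusted p = 0.00395) in mature mice. The mature call was lost without 2dpr replicate 4 (adjusted p = 0.0785), and without the 3 libraries the mature rise was larger (log2 fold change 0.86, adjusted p = 6.64e-06). Without the 3 libraries, Fth1 also fell from 2 to 5dpr at both ages (log2 fold change -0.42, adjusted p = 0.0307 in immature and log2 fold change -0.56, adjusted p = 0.0116 in mature mice), a step that was not called with all libraries (log2 fold change -0.45, SE 0.19, adjusted p = 0.153 and log2 fold change -0.32, SE 0.20, adjusted p = 0.31). Against baseline at 14dpr it rose 1.45-fold (log2 fold change 0.53, SE 0.19, adjusted p = 0.0265) in immature mice, lost without baseline replicate 4 or 6 or 14dpr replicate 3 (adjusted p from 0.0539 to 0.0779) and with the replicate block (log2 fold change 0.47, adjusted p = 0.111), and it rose 1.81-fold (log2 fold change 0.86, SE 0.19, adjusted p = 0.000426) in mature mice. Near-identical copies of the ferritin genes had rows of their own, with 1.09 to 43.9 CPM for Ftl1-ps1, 0 to 15.3 CPM for Ftl1-ps2, 0.364 to 18.3 CPM for Ftl2-ps and 0.0719 to 3.33 CPM for Fth-ps2, so the levels of Ftl1 and Fth1 are uncertain by the reads that the counting could have split.

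The ratio of Ftl1 to Fth1 CPM, given as a description without a test, moved from below 1 at 0dpr to above 1 at 2dpr in every library. In the immature libraries it was 0.974 ± 0.106 (mean ± SD, n = 4) at baseline, 0.71 ± 0.174 at 0dpr, 2.64 ± 0.613 at 2dpr, 2.32 ± 0.207 at 5dpr and 2.40 ± 0.13 at 14dpr. In mature libraries it was 1.47 ± 0.156 at baseline, 0.758 ± 0.177 at 0dpr, 2.16 ± 0.549 at 2dpr, 2.49 ± 0.378 at 5dpr (n = 3) and 1.98 ± 0.307 at 14dpr. Leaving out the 3 libraries, the mean was 0.854 (n = 2) at 0dpr in the immature group and 2.06 ± 0.626 (n = 3) at 2dpr in the mature group. The libraries of the ages did not overlap at baseline (0.872 to 1.09 in immature and 1.29 to 1.62 in mature mice) and overlapped at 0dpr (0.519 to 0.896 and 0.59 to 0.959) and at 2dpr (2.03 to 3.48 and 1.53 to 2.75). CPM is not divided by transcript length, so a ratio of 1 does not mark equal levels. Per kilobase of the longest annotated coding transcript, mean Ftl1 at 0dpr was above mean Fth1. The means were 426 against 390 CPM per kb in immature and 488 against 426 in mature mice.

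**Figure D4:**
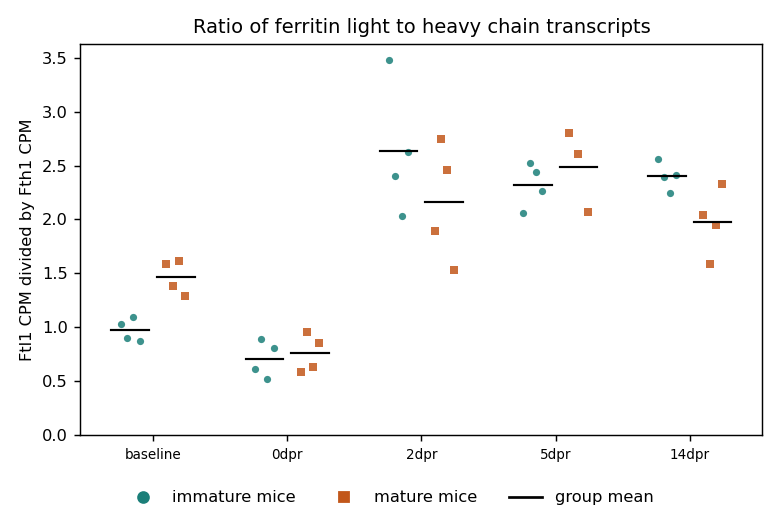
Ftl1 CPM divided by Fth1 CPM (linear axis from 0), with 1 point per library, by stage and age. Immature libraries held ratios of 0.519 to 0.896 at 0dpr and of 2.03 to 3.48 at 2dpr, and mature libraries held ratios of 0.59 to 0.959 and of 1.53 to 2.75.

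Per kilobase of the longest annotated coding transcript, the scale on which genes can be compared, the order of the levels at 2dpr in immature mice was Ftl1 at 2393 ± 448 CPM per kb (mean ± SD, n = 4), Fth1 at 596 ± 75.4, Hmox1 at 288 ± 31.9, Slc11a1 at 83.2 ± 9.99, Blvrb at 55.9 ± 8.89, Tfrc at 30.9 ± 4.32, Cd163 at 20.4 ± 9.13 and Slc40a1 at 7.92 ± 1.89. At baseline in immature mice Ftl1 (563 ± 101 CPM per kb) and Fth1 (373 ± 44.1) also led, followed by Blvrb (108 ± 18.5) and Tfrc (93.0 ± 8.36), while Hmox1 (38.0 ± 3.60) and Slc40a1 (30.7 ± 5.08) lay lower and Slc11a1 (8.02 ± 2.55) was last. When the 10 groups were put in the order of their mean level for each gene, the libraries of neighbouring groups overlapped at 63 of 72 steps. The 9 steps without overlap were for Hmox1 those from immature to mature 14dpr and from immature 5dpr to immature 2dpr, for Slc40a1 that from immature to mature baseline, for Ftl1 those from immature to mature baseline and from mature baseline to immature 5dpr, for Fth1 that from immature to mature 5dpr, and for Slc11a1 those from immature to mature 0dpr, from immature to mature baseline and from mature baseline to immature 5dpr. At no step did the levels of Cd163, Tfrc or Blvrb separate. The same count was not made over all genes, so these steps describe the 8 genes only.

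Between the ages, 1 of the 8 genes passed the test, at baseline. At baseline, Slc11a1 was lower in immature mice (26.3, 20.1, 14.1 and 13.8 CPM) than in mature mice (44.7, 32.1, 30.2 and 27.5 CPM), without overlap (log2 fold change -0.86, 95% confidence interval -1.22 to -0.50, adjusted p = 0.0123). This was the 1 gene of 8 called, where 0.585% of all genes were called, and the call was lost without mature baseline replicate 1 or immature baseline replicate 4 or 6 (adjusted p from 0.0712 to 0.101) and with the replicate block (log2 fold change -0.73, adjusted p = 0.0877), the muscle score (log2 fold change -0.81, adjusted p = 0.0669) or only the libraries compared (log2 fold change -0.87, adjusted p = 0.051). The macrophage markers at baseline summed to 516 to 780.2 CPM in immature and 727 to 1183 CPM in mature mice, the muscle markers to 85181 to 110239 CPM and 46477 to 89126 CPM, and their part in the difference was not tested further. Hmox1 and Slc40a1 were lower in immature mice at baseline without passing the test (log2 fold change -0.83, 95% confidence interval -1.43 to -0.23, adjusted p = 0.226 for Hmox1, and log2 fold change -0.88, 95% confidence interval -1.50 to -0.27, adjusted p = 0.207 for Slc40a1). Both passed it without the 3 libraries, none of which is a baseline library (log2 fold change -0.84, adjusted p = 0.0437 and log2 fold change -0.89, adjusted p = 0.0305), and Slc40a1 also with only the libraries compared.

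At the other stages edgeR called 0 of the 8 genes between the ages. At 0dpr, edgeR called 0.726% of all genes, and DESeq2 called 2 of the 8 and 349 genes of the whole table. By edgeR, 3 of the 8 had an unadjusted p under 0.05 (Hmox1, Slc40a1 and Blvrb), as had 10.7% of all genes. Hmox1 was at 11.1, 39.3, 15.1 and 36.0 CPM in immature and 55.4, 67.6, 33.4 and 73.5 CPM in mature mice at 0dpr, with overlap (log2 fold change -1.18, 95% confidence interval -1.80 to -0.56, adjusted p = 0.0548), and it was called without immature replicate 2 or 4 or mature replicate 3 (adjusted p from 0.0128 to 0.028). Slc40a1 (log2 fold change -1.14, 95% confidence interval -1.76 to -0.51, adjusted p = 0.0722) was called without immature replicate 2 or mature replicate 3 (adjusted p from 0.00669 to 0.0375), and Blvrb (log2 fold change -0.64, 95% confidence interval -1.13 to -0.16, adjusted p = 0.25) without immature replicate 2 (adjusted p = 0.0339). Without the 3 libraries the difference of Hmox1 was smaller (log2 fold change -0.60, adjusted p = 0.618), as were those of Slc40a1 (log2 fold change -0.66, adjusted p = 0.556) and Blvrb (log2 fold change -0.13, adjusted p = 0.955).

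At 2dpr, where 0.627% of all genes were called between the ages, 0 of the 8 genes had an unadjusted p under 0.05 and DESeq2 called 0. Hmox1 (log2 fold change -0.06, 95% confidence interval -0.65 to 0.53, adjusted p = 0.95) and Ftl1 (log2 fold change 0.18, 95% confidence interval -0.21 to 0.58, adjusted p = 0.743) had intervals that reach to either side of 0. At 5dpr, where 0% of all genes were called, DESeq2 called 0 of the 8, and 3 had an unadjusted p under 0.05, as had 5.1% of all genes. Hmox1 was lower in immature (265, 310.3, 287 and 224 CPM) than in mature mice (379.8, 781 and 488 CPM), without overlap (log2 fold change -1.02, 95% confidence interval -1.65 to -0.39, adjusted p = 0.515), Cd163 had overlapping libraries (log2 fold change -0.81, 95% confidence interval -1.46 to -0.15, adjusted p = 0.826), and so had Slc11a1 (log2 fold change -0.54, 95% confidence interval -0.91 to -0.17, adjusted p = 0.615). At 14dpr, where 0.00943% of all genes were called, 0 of the 8 had an unadjusted p under 0.05 and DESeq2 called 0. The interaction of age with the step from 0 to 2dpr called 0 of the 8 by edgeR and 0 by DESeq2, where 0.0613% of all genes were called. Unadjusted p-values were under 0.05 for 11.2% of all genes and for 3 of the 8, Hmox1 (log2 fold change 1.12, 95% confidence interval 0.27 to 1.97, adjusted p = 0.31), Blvrb (log2 fold change 0.99, 95% confidence interval 0.30 to 1.67, adjusted p = 0.271) and Slc40a1 (log2 fold change 0.92, 95% confidence interval 0.03 to 1.81, adjusted p = 0.426). A positive value means a larger rise or a smaller fall in immature mice, and all 3 genes were low in the 0dpr libraries that stand apart. With those 3 left out the values were smaller for Hmox1 (log2 fold change 0.40, adjusted p = 0.873) and Blvrb (log2 fold change 0.48, adjusted p = 0.781) and close for Slc40a1 (log2 fold change 0.89, adjusted p = 0.602).

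The level of each gene was also set against the mean log2 CPM of the 10 macrophage markers of the same library, as a description without a test. Relative to that score, Slc11a1 lay at -1.30 ± 0.24 (log2, mean ± SD, n = 4) at 0dpr and -0.53 ± 0.23 at 2dpr in immature and at -1.05 ± 0.15 and -0.76 ± 0.24 in mature mice. On the same scale, Hmox1 lay at -0.72 ± 0.99 at 0dpr and 0.70 ± 0.21 at 2dpr in the immature libraries, and the 0dpr mean was -0.01 (n = 2) without the libraries that stand apart. In the mature libraries it lay at 0.62 ± 0.44 and 0.62 ± 0.32, and at 0.72 ± 0.32 (n = 3) at 2dpr without replicate 3. Slc40a1 went from 0.20 ± 0.73 to -3.39 ± 0.36 in immature and from 1.42 ± 0.49 to -3.41 ± 0.91 in mature mice, and without the 3 libraries its mean was 0.71 (n = 2) at 0dpr in the immature and -3.84 ± 0.37 (n = 3) at 2dpr in the mature group. Cd163, itself a macrophage gene, went in immature libraries from 0.48 ± 0.57 at 0dpr through -1.74 ± 0.63 at 2dpr to -2.99 ± 0.23 at 14dpr. In mature libraries it went from 0.19 ± 0.14 through -1.27 ± 0.51 to -2.86 ± 0.53. With the 3 libraries left out, Cd163 was at 0.52 (n = 2) at 0dpr in the immature and -1.32 ± 0.61 (n = 3) at 2dpr in the mature group, and Slc11a1 at -1.30 (n = 2) and -0.73 ± 0.29 (n = 3). Ftl1 went from 3.46 ± 0.31 at 0dpr to 3.05 ± 0.36 at 2dpr in immature mice. In mature mice it went from 3.70 ± 0.15 to 2.70 ± 0.45. Fth1 went from 3.99 ± 0.32 to 1.68 ± 0.19 and from 4.13 ± 0.35 to 1.63 ± 0.54. Tfrc went from 2.99 ± 0.39 to -0.88 ± 0.25 and from 3.17 ± 0.55 to -1.06 ± 0.97. Blvrb went from 0.35 ± 0.76 to -2.28 ± 0.27 and from 1.06 ± 0.49 to -2.71 ± 0.19. Without the 3 libraries, the immature 0dpr mean was 3.67 for Ftl1, 3.90 for Fth1, 3.08 for Tfrc and 0.93 for Blvrb (n = 2). The mature 2dpr mean was then 2.87, 1.87, -1.52 and -2.80 in the same order (n = 3). Markers of resident macrophages (8 genes) gave 3 higher and 1 lower at 2dpr in immature mice and 3 higher and 2 lower in mature mice.

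Other genes of heme uptake and breakdown moved in both directions. From 0 to 2dpr, 7 of 12 genes rose and 3 fell in the immature group, the mature group had 6 rises and 3 falls, and leaving out the 3 libraries gave 6 rises and 3 falls at both ages. Of all genes, 21.8% rose and 22.2% fell in this step in the immature group, and 22.7% rose and 24.9% fell in the mature group, which is the background for this list and the 3 that follow. Hmox2, the constitutive heme oxygenase, rose 1.98-fold (log2 fold change 0.98, SE 0.11, adjusted p = 1.81e-09) in immature and rose 2.37-fold (log2 fold change 1.25, SE 0.11, adjusted p = 6.09e-12) in mature mice. Blvra, the main biliverdin reductase of adult tissue, rose 3.07-fold (log2 fold change 1.62, SE 0.16, adjusted p = 6.03e-10) and rose 2.48-fold (log2 fold change 1.31, SE 0.16, adjusted p = 2.52e-08). Bach1, a heme-binding repressor of Hmox1, rose 2.40-fold (log2 fold change 1.26, SE 0.15, adjusted p = 8.26e-09) and rose 2.81-fold (log2 fold change 1.49, SE 0.15, adjusted p = 1.70e-10). Nfe2l2, which encodes NRF2, an activator of Hmox1, rose by 0.68 (adjusted p = 4.57e-07) on the log2 scale in immature and 0.81 (adjusted p = 1.14e-08) in mature mice. Hp, which encodes haptoglobin, rose 1.91-fold (log2 fold change 0.93, SE 0.28, adjusted p = 0.00616) and rose 3.82-fold (log2 fold change 1.93, SE 0.28, adjusted p = 6.63e-07). At 0dpr, Hp was at 176 to 455 CPM in immature and 175 to 237 CPM in mature mice. The highest of these values came from immature replicate 1, the library with the most hepatocyte transcripts. Slc48a1, which carries heme out of the phagolysosome, was at 0.31 (adjusted p = 0.0379) and -0.05 (adjusted p = 0.769), and the immature call was lost without the 3 libraries (log2 fold change 0.15, adjusted p = 0.426). Spic, a transcription factor of red pulp macrophages, was at -1.28 (adjusted p = 0.053) in immature mice, where it passed the test without the 3 libraries (log2 fold change -2.10, adjusted p = 0.00041), and fell 3.45-fold (log2 fold change -1.79, SE 0.51, adjusted p = 0.0043) in mature mice.

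Of 27 other genes of iron transport, storage and control with a row (29 were listed), 4 rose and 10 fell from 0 to 2dpr at the immature age, against 5 rises and 7 falls at the mature age. Leaving out the 3 libraries gave 3 rises and 9 falls at the immature and 3 rises and 11 falls at the mature age. The share of rises lay below that of all genes, and the 7 falls in mature mice were near it. Hjv, a muscle and liver coreceptor upstream of hepcidin, fell 6.08-fold (log2 fold change -2.60, SE 0.29, adjusted p = 4.12e-09) in immature and fell 6.63-fold (log2 fold change -2.73, SE 0.29, adjusted p = 1.04e-09) in mature mice. All skeletal muscle markers fell in the same step at both ages, and their part in the fall of Hjv was not tested. Tfr2, a transferrin receptor of hepatocytes and erythroid cells, fell 8.24-fold (log2 fold change -3.04, SE 0.50, adjusted p = 6.05e-06) and fell 20.2-fold (log2 fold change -4.33, SE 0.56, adjusted p = 5.43e-08). Scara5, a receptor for ferritin, fell 4.43-fold (log2 fold change -2.15, SE 0.28, adjusted p = 6.64e-08) and fell 4.28-fold (log2 fold change -2.10, SE 0.27, adjusted p = 7.32e-08). Slc11a2, the iron importer DMT1, was at 0.15 (adjusted p = 0.498) and -0.06 (adjusted p = 0.787) on the log2 scale. Cp, the ferroxidase ceruloplasmin, was at -1.14 (adjusted p = 5.95e-05) and -0.44 (adjusted p = 0.0927), and without the 3 libraries it was at log2 fold change -0.54, adjusted p = 0.0206 and log2 fold change -0.39, adjusted p = 0.0482.

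Among liver-made genes of these lists, Hpx and Hamp were highest in immature 0dpr replicate 1, the library with the most hepatocyte transcripts. Their calls were lost without the 3 libraries. Hpx, which encodes the heme scavenger hemopexin, was at 174, 0.123, 0.364 and 0.556 CPM in the immature 0dpr libraries, and its change to 2dpr was -6.80 (adjusted p = 0.000124) with all libraries and log2 fold change 0.15, adjusted p = 0.933 without the 3. Hamp, which encodes hepcidin, was at 6.42, 0, 0 and 0 CPM in the same libraries, with -4.65 (adjusted p = 0.0477) for its change, and no fold is given without the 3, where the 0dpr libraries left were at 0. Trf, which encodes transferrin, was at 52.0, 19.5, 4.19 and 20.6 CPM, and its fall was called with all libraries (log2 fold change -1.69, SE 0.48, adjusted p = 0.00432) and without the 3 (log2 fold change -1.46, adjusted p = 1.28e-06).

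The heme synthesis genes fell together. From 0 to 2dpr all 9 fell in immature mice and 8 of 9 did in mature mice, with Alas1, the housekeeping first enzyme, at -0.39 (adjusted p = 0.0849). Alas2, the erythroid first enzyme, fell 3.88-fold (log2 fold change -1.96, SE 0.43, adjusted p = 0.000296) and fell 6.06-fold (log2 fold change -2.60, SE 0.44, adjusted p = 6.14e-06), Fech, which inserts the iron, fell 2.64-fold (log2 fold change -1.40, SE 0.21, adjusted p = 1.08e-06) and fell 3.55-fold (log2 fold change -1.83, SE 0.21, adjusted p = 5.68e-09), and Uros, the uroporphyrinogen synthase, fell 1.84-fold (log2 fold change -0.88, SE 0.20, adjusted p = 0.00035) and fell 2.81-fold (log2 fold change -1.49, SE 0.20, adjusted p = 7.74e-08). The count was 8 of 9 at both ages when the 3 libraries were left out. The erythroid markers fell in the same comparisons, and their part was not tested. Of 10 targets of NRF2 other than Hmox1, 5 rose and 3 fell at both ages (without the 3 libraries, 4 rises and 4 falls at the immature and 5 rises and 4 falls at the mature age). Slc7a11, the cystine transporter, rose 14.9-fold (log2 fold change 3.90, SE 0.44, adjusted p = 4.84e-09) and rose 14.9-fold (log2 fold change 3.89, SE 0.43, adjusted p = 1.79e-09), Prdx1, a peroxiredoxin, rose 2.32-fold (log2 fold change 1.21, SE 0.14, adjusted p = 1.32e-08) and rose 2.28-fold (log2 fold change 1.19, SE 0.14, adjusted p = 1.33e-08), and Me1, the cytosolic malic enzyme, fell 5.20-fold (log2 fold change -2.38, SE 0.31, adjusted p = 8.37e-08) and fell 6.14-fold (log2 fold change -2.62, SE 0.31, adjusted p = 1.07e-08).

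**Figure D5:**
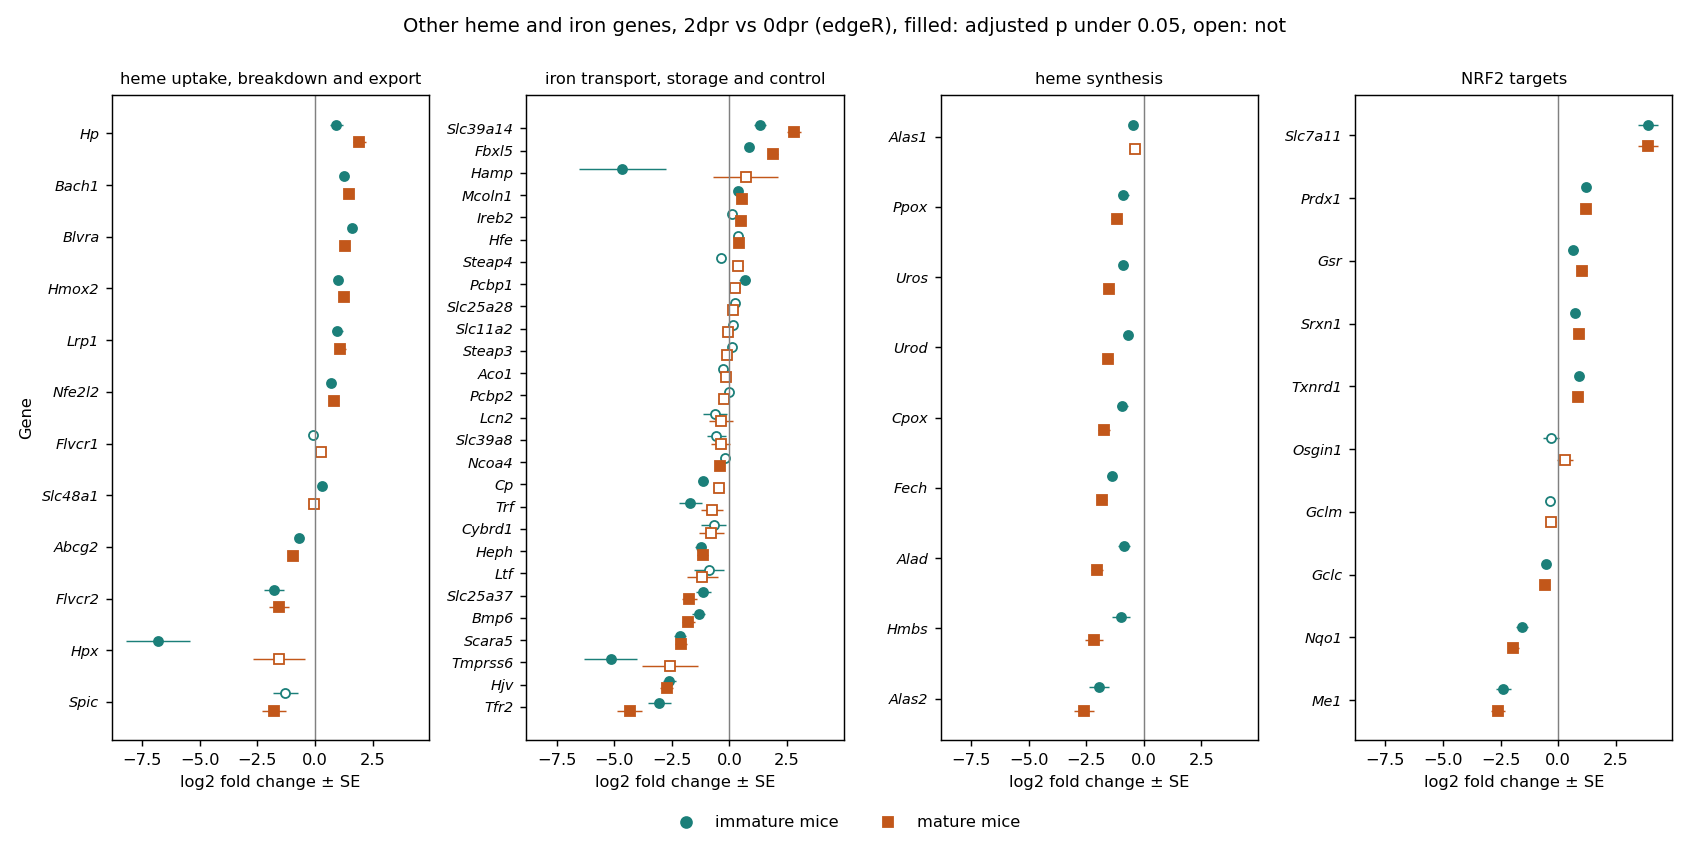
Log2 fold change (x axis) with its SE from 0 to 2dpr for the other heme and iron genes, by list and age, with filled points for an adjusted p under 0.05. The heme synthesis genes lay to the left of 0 at both ages, and Slc7a11 lay farthest to the right, at 3.90 in immature and 3.89 in mature mice.

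The genes most like each of the 8 were found by Pearson's r of log2 CPM over the 39 libraries among 16139 genes with a mean of at least 1 CPM, as a description without a test, where libraries share tissue makeup and stage. Hmox1 was most like Ly86 (r = 0.956), Aif1 (r = 0.951) and Otulinl (r = 0.95). Slc11a1 was most like Psap (r = 0.981), Csf1r (r = 0.981) and Ctsz (r = 0.98), and Ftl1 was most like Lgals3 (r = 0.983), Tmem51 (r = 0.979) and Efhd2 (r = 0.978). Slc40a1 was most like Spic (r = 0.917), Samd14 (r = 0.895) and Itgb3 (r = 0.882). Tfrc was most like Nxpe2 (r = 0.94), Slc43a1 (r = 0.932) and Yod1 (r = 0.932), and Blvrb was most like Prdx2 (r = 0.907), Tspan32 (r = 0.906) and Tmc6 (r = 0.906). Fth1 was most like Etv3 (r = 0.882), Cdk20 (r = 0.873) and Gadd45b (r = 0.872). Cd163 had the weakest likeness, with Car4 (r = 0.766), Mustn1 (r = 0.743) and Itga7 (r = 0.736). Among the 8 themselves, Ftl1 and Slc11a1 were the most alike pair (r = 0.976), followed by Hmox1 with Ftl1 (r = 0.919) and Hmox1 with Slc11a1 (r = 0.910), while Slc40a1 was positively related to Blvrb (r = 0.733) and Tfrc (r = 0.688).

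Promoter windows of 250 bases before to 50 bases after the start, from RefSeq (GRCm38.p6), were in the table for 6 of the 8 genes, without Hmox1 and Slc40a1. The core of the antioxidant response element (TGACNNNGC) was found on either strand in 0 of these 6 genes and in 12.4% of 32851 windows, and the AP-1 element (TGANTCA) in 0 of 6 genes and in 7.81% of windows. The letters of these motifs can overlap in 1 site, and the absence of a match says only that these letters are not in this window.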

How the data were processed

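The authors aligned reads from stranded libraries to GRCm38 with STAR 2.5.2a, per the submitters' processing notes in the labels, and deposited whole-number counts per gene without normalization, in a table of 48733 genes and a filtered table of 21204 genes with unchanged counts. The deposited normalized signal is CPM, which equals CPM from edgeR with TMM factors (largest relative difference 5e-15).

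Counts of the filtered table were fitted in R 4.3.3 with edgeR 4.0.16 (TMM, quasi-likelihood, 1 coefficient for each of 10 groups, 39 libraries, Benjamini-Hochberg adjustment over all genes) in 16 comparisons. Log2 CPM used a prior count of 2. The fit was tested on simulated data. Alternatives were RLE size factors, DESeq2 1.42.0, no filter, filterByExpr, the replicate number as a block, a muscle score as a covariate, fits to the compared libraries alone, a threshold of 0.01 and each library left out. After the data had been seen, leaving out 3 libraries together was added.

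The 8 genes and the gene lists were chosen with earlier results of these data known, so no list is independent evidence. All 8 genes are described. Of the other heme and iron genes, the 3 with the best mean rank of adjusted p at 2dpr against 0dpr are named in each list, with a fixed set (Hmox2, Blvra, Hp, Hpx, Slc48a1, Spic, Trf, Slc11a2, Cp, Hamp, Alas2, Bach1 and Nfe2l2), and Alas1, Folr2 and Vcam1 were named after their values were seen. Of the list genes, 2 (Hamp2 and Ftmt) had no row. Precision was set by total counts of 6075355 to 21546977 per library and by the spread of replicates. No replicate pair was alike within counting noise (lowest chi-square per degree of freedom 6.39 over 57 pairs). Among the groups compared, same-numbered libraries deviated together only between the ages at 0dpr (correlations of their deviations from 0.109 to 0.207, mean 0.15, 4 pairs), and there the replicate block changed no call among the 8 genes. The pairing comes from the numbers in the labels.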

Additional observations from a re-analysis of the deposited data

Results flagged for a closer look

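In 72 sets of 4 libraries (8 genes in 9 groups), the gap between 1 library and the rest passed Dixon's 95% critical value in 2, where chance flags about 1 in 20. Slc40a1 in immature 5dpr replicate 2 was at 49.7 CPM, below the other 3 libraries of its group (73.0 to 77.6 CPM). Slc11a1 in mature 14dpr replicate 1 was at 156 CPM, above the other 3 libraries of its group (135 to 139 CPM).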

How the results depend on the processing

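Counts of the 8 genes called are given where they moved by more than 1.5 times, and no call changed sign under any alternative run. At an adjusted p under 0.01, 0dpr against baseline in mature mice had 2 calls, 14 against 5dpr in mature mice had 1, and the ages at baseline had 0. For the ages at 0dpr, RLE size factors gave 1 call, no filter on low counts (35470 genes) 2, filterByExpr (18333 genes) 1 and DESeq2 2, and DESeq2 gave 2 at 14 against 5dpr in immature mice. The muscle covariate gave 1 call (0dpr against baseline, immature), 3 (2 against 0dpr, immature), 2 (14dpr against baseline, immature), 0 (0dpr against baseline, mature), 4 (2 against 0dpr, mature) and 0 (ages at baseline). Only the libraries compared gave 0 calls (0dpr against baseline, immature), 5 (5 against 2dpr, immature), 5 (14 against 5dpr, immature) and 0 (5 against 2dpr, mature). Leaving out the 3 libraries gave 0 calls (0dpr against baseline, immature), 5 (5 against 2dpr, immature), 2 (14 against 5dpr, immature), 3 (5 against 2dpr, mature) and 3 (ages at baseline). Leaving out 1 library at a time gave 1 to 6 calls for 0dpr against baseline in mature mice, 1 to 3 in immature mice, 1 to 2 for 14 against 5dpr at either age, 1 to 3 for 5 against 2dpr in mature mice, 0 to 1 for the ages at baseline and 0 to 3 for the ages at 0dpr. The causes of these moves were not tested. The replicate block gave 0 calls for the ages at baseline and lost 4 further calls (Slc40a1 at 0dpr against baseline and at 2 against 0dpr, Ftl1 at 5 against 2dpr and Fth1 at 14dpr against baseline, all in immature mice), and moved the calls over all genes at 0dpr against baseline in immature mice from 2257 to 802 and at the interaction from 13 to 8. The mean correlation over 154 same-numbered pairs was 0.00847, and in 0 of 14 comparisons with 3 or more pairs did every library correlate best with its own number. The highest correlation was 0.297, between replicate 3 of immature 0dpr and of mature 2dpr, both low in short noncoding RNAs. Over all genes, calls that moved by more than 1.5 times were as follows. DESeq2 called 1029 at 14 against 5dpr in immature (674 by edgeR) and 1386 in mature mice (886), and between the ages 334 at baseline (124), 349 at 0dpr (154), 428 at 2dpr (133), 33 at 5dpr (0), 32 at 14dpr (2) and 111 for the interaction (13). Fits to only the libraries compared called 48 at 0dpr against baseline in immature mice (2257), 2988 and 714 at 5 against 2dpr in immature and mature mice (1707 and 3084), 1875 and 2589 at 14 against 5dpr, 6119 at 2 against 0dpr in mature mice (10100), and 471, 0, 4, 6 and 5 between the ages in order of stage and 0 for the interaction. Leaving out the 3 libraries gave 258 at 0dpr against baseline and 3036 at 5 against 2dpr in immature mice, 1497 and 2551 at 14 against 5dpr in immature and mature mice, and 537, 47, 211, 4 and 16 between the ages and 0 for the interaction. The lowest count of any of the 8 genes in a library was 74.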

Other observations

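Some genes of the fixed lists rose late in repair, after 5dpr, when Cd163 was falling. Slc7a11, the cystine transporter, was at 23.6, 29.2, 8.77 and 10.9 CPM at 5dpr and 105, 103, 143 and 99.7 CPM at 14dpr in immature mice, and at 8.89, 19.8 and 14.7 CPM and 130.3, 183, 104 and 154 CPM in mature mice. Every 14dpr library was above every 5dpr library, and Slc7a11 rose 6.34-fold (log2 fold change 2.67, SE 0.38, adjusted p = 2.33e-05) in immature and rose 9.80-fold (log2 fold change 3.29, SE 0.43, adjusted p = 5.50e-06) in mature mice by edgeR. Scara5, a receptor for ferritin, was at 22.4, 32.1, 17.5 and 26.0 CPM and then 74.7, 53.4, 55.5 and 54.7 CPM in immature mice, and rose 2.44-fold (log2 fold change 1.29, SE 0.27, adjusted p = 0.00295) there and rose 2.24-fold (log2 fold change 1.16, SE 0.29, adjusted p = 0.0146) in mature mice. Cp, the ferroxidase that works beside ferroportin, was at 59.6, 55.8, 60.4 and 50.6 CPM at 5dpr and 121, 142, 141 and 148 CPM at 14dpr in immature mice. It rose 2.44-fold (log2 fold change 1.28, SE 0.22, adjusted p = 0.000368) in immature and rose 2.04-fold (log2 fold change 1.03, SE 0.24, adjusted p = 0.00896) in mature mice. Osteoblast markers rose in the same step for 2 of 6 genes at both ages, with a summed level of 6616 to 16657 CPM at 5dpr and 16573 to 27039 CPM at 14dpr in immature mice, and their part in these rises was not tested. These 3 genes were chosen after their values were seen.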
